A study of Macaca fascicularis with 4 samples.

Results

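ZEB1, ZEB2, SNAI1, SNAI2, TWIST1 and TWIST2 encode the transcription factors best known for driving epithelial-mesenchymal transition (EMT), the change by which cells leave an epithelial sheet and become migratory. The genes were chosen by symbol, and all 6 were found once each among the 26222 named gene rows of every library. ZEB1 and ZEB2 are zinc-finger and homeodomain proteins, SNAI1 (Snail) and SNAI2 (Slug) are zinc-finger proteins, and TWIST1 and TWIST2 are basic helix-loop-helix proteins that bind DNA as dimers with partners such as TCF3, TCF4 and TCF12. All bind E-box sequences, and the ZEB and SNAI proteins in particular repress epithelial genes such as CDH1. In embryos they act at gastrulation, in the somites, in the neural crest as it leaves the neural tube, and in limb and body wall mesenchyme.

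Cells of cynomolgus monkey (Macaca fascicularis) embryos were profiled by droplet single-cell RNA sequencing, which counts unique molecular identifiers (UMIs) from the 3′ ends of transcripts. Each of 4 ages gave 1 library: E24 (embryonic day 24, or Carnegie stage 11) with 10639 cells, E28 (Carnegie stage 13) with 5028, E31 (Carnegie stage 14) with 6661, and E37 (Carnegie stage 18) with 5298. No genetic change or treatment was named for any of them. The tissue differed with the day: the trunk without the heart, the parts anterior to it and the posterior growth zone at E24. At E28 and E31 it was the urogenital ridge, which holds the mesonephros, the coelomic epithelium and some mesentery, and at E37 it was mostly gonadal ridge, with pieces of mesonephros, mesentery and presumed adrenal gland. All pieces were dissociated in trypsin and EDTA, and the E24 label carries 2 sample codes that its cells could not be split by.

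The median cell held 9990 UMIs at E24, 11391 at E28, 9766 at E31 and 6672.5 at E37. No stage has a second library, so no test was possible, each value describes 1 library, and stage and dissection cannot be told apart. Levels are UMIs of a gene per 1000000 UMIs, summed over a class of cells (CPM), and the ranges in brackets are exact 95% intervals that cover counting error only. Pairs of libraries shared 37 to 111 cell barcode sequences. Fewer expressing cells and fewer molecules per cell both lower a summed level, so the share of cells with a UMI is given too, after each cell was thinned to 2000 UMIs. As a measure of free RNA, erythroid-like cells (110, 48, 48 and 116 in stage order), which were deeper than most with medians of 23119, 31407, 28371 and 13437 UMIs, held at most 4.61 CPM of SNAI1, 2.09 CPM of TWIST1 and 1.22 CPM of TWIST2 in any library. Their ZEB1 reached 3.52 CPM, their SNAI2 7.71 CPM and their ZEB2 15.5 CPM.

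In whole libraries the 6 genes followed different courses. SNAI2 stood at 55.6 CPM (54.3 to 57.0) at E24, 131 CPM (129 to 134) at E28, 185 CPM (181 to 188) at E31 and 255 CPM (250 to 260) at E37, higher in each later library. After thinning, 9.90% of cells held a SNAI2 UMI at E24, 19.6% at E28, 25.3% at E31 and 35.9% at E37. ZEB2 was at 42.0 CPM (40.8 to 43.2), 61.2 CPM (59.3 to 63.2), 56.5 CPM (54.8 to 58.3) and 136 CPM (132 to 140) in the same order, and so was highest at E37. Cells with a ZEB2 UMI made up 8.11%, 11.02%, 10.1% and 23.3% after thinning.

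TWIST1 was highest in the E24 library, with 36.0 CPM (34.9 to 37.1) at E24, 13.6 CPM (12.7 to 14.5) at E28, 21.2 CPM (20.1 to 22.3) at E31 and 29.7 CPM (28.01 to 31.4) at E37. Its paralogue TWIST2 was lowest where TWIST1 was highest, with 16.7 CPM (16.0 to 17.5) at E24, 43.8 CPM (42.1 to 45.4) at E28, 51.6 CPM (49.9 to 53.3) at E31 and 50.9 CPM (48.7 to 53.1) at E37. The E31 and E37 levels of TWIST2 did not differ beyond their intervals. SNAI1 varied less, with 19.7 CPM (18.9 to 20.5) at E24, 11.3 CPM (10.4 to 12.1) at E28, 19.6 CPM (18.6 to 20.6) at E31 and 13.4 CPM (12.3 to 14.6) at E37. Its order was E24, E31, E37 and E28 from high to low, the first pair overlapping. ZEB1 was at 27.7 CPM (26.8 to 28.7) at E24, 19.9 CPM (18.8 to 21.0) at E28, 21.7 CPM (20.7 to 22.8) at E31 and 25.4 CPM (23.9 to 27.1) at E37. ZEB1 intervals overlapped between E24 and E37 and between E28 and E31.

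**Figure D1:**
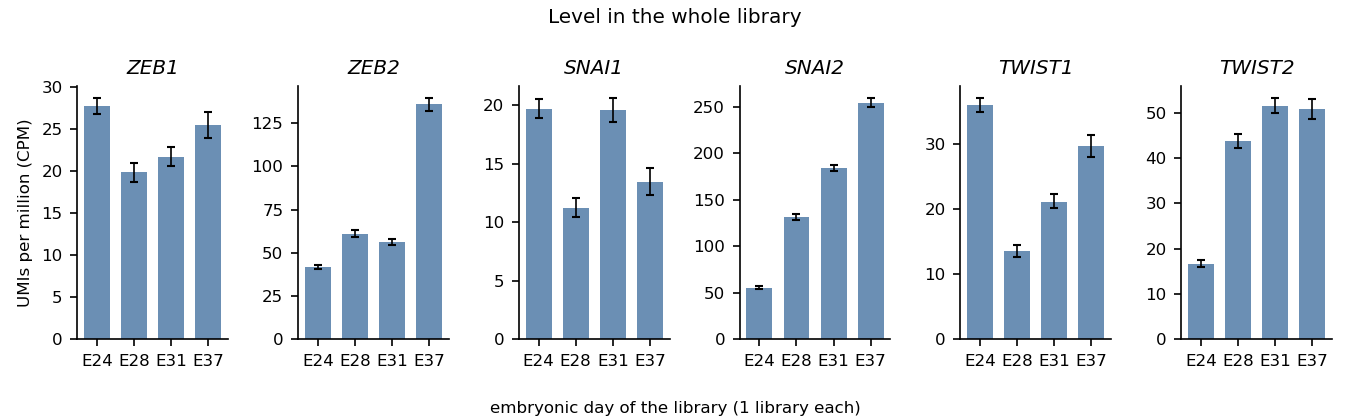
Bars give CPM of each gene in the 4 libraries, 1 library per embryonic day, and error bars are exact Poisson 95% intervals. SNAI2 is higher in each later library, ZEB2 is highest at E37 with 136 CPM, and TWIST1 is highest and TWIST2 lowest at E24.

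Between neighbouring libraries, a gene was called past 2-fold without a test. In E28 against E24, 2 of the 6 genes were higher by 2-fold or more, where 18.6% of the 17718 genes measured were, and 1 was lower, where 6.72% were. SNAI2 was 2.36-fold (2.29 to 2.44) and TWIST2 2.62-fold (2.47 to 2.78) higher at E28 than at E24, and TWIST1 was 2.65-fold lower (2.46 to 2.86). Higher levels by 2-fold or more were thus common among all genes of the E28 library. Within the keratin classes described next these ratios changed: in keratin cells SNAI2 was lower at E28, with a ratio of 0.632 (0.591 to 0.676), and TWIST2 had a ratio of 1.45, and in keratin-free cells TWIST1 was 1.76-fold lower. Between E31 and E28, which share a dissection, none of the 6 passed 2-fold, where 1.92% of genes were higher and 4.58% lower by as much. The largest ratio was that of SNAI1, 1.74 (1.59 to 1.91). Between E37 and E31, ZEB2 alone was past 2-fold, 2.40-fold higher (2.31 to 2.50), where 10.1% of genes were, and none of the 6 was lower, where 9.38% were.

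The cells with keratins gave a second view. KRT8 and KRT18 encode the keratin pair of simple epithelia, and cells with 3 or more UMIs of the pair were set against cells with none. There were 5204, 1864, 2314 and 338 such keratin cells and 3433, 2070, 2962 and 4378 keratin-free cells at E24, E28, E31 and E37. Median depths were 10742.5, 12896.5, 11549.5 and 8787 UMIs in keratin cells and 9135, 10481, 8793 and 6532.5 UMIs in keratin-free cells. EPCAM, an epithelial adhesion molecule that the gate did not use, had a UMI in 59.2%, 50.9%, 54.8% and 18.6% of keratin cells against 24.5%, 13.3%, 10.4% and 1.64% of keratin-free cells. The gate also took in other cells, since 10.0%, 8.33%, 8.33% and 8.62% of the erythroid-like cells fell in the keratin class.

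At E28 and at E31 all 6 genes were lower in keratin cells by 2-fold or more, where 7.36% and 6.83% of all measured genes were. SNAI2 had 42.6 CPM in keratin cells against 239 CPM in keratin-free cells at E28, a 5.62-fold lower level (5.26 to 5.995), and 52.3 CPM against 330 CPM at E31, 6.31-fold lower (5.98 to 6.67). SNAI1 had 4.31 CPM against 20.7 CPM at E28 and 4.94 CPM against 37.3 CPM at E31, or 4.80-fold (3.90 to 5.95) and 7.55-fold lower (6.34 to 9.04). Erythroid-like cells of these 2 libraries held no SNAI1 UMI, with upper limits of the interval at 2.60 CPM and 2.85 CPM. Keratin cells lay above these limits in CPM. The erythroid-like cells were deeper, with medians of 31407 and 28371 UMIs against 12896.5 and 11549.5 UMIs. An equal number of free UMIs per cell would thus give them a lower CPM. Whether free RNA gave the SNAI1 UMIs of keratin cells was not tested. TWIST1 had 5.82 CPM against 24.5 CPM at E28 and 8.18 CPM against 38.4 CPM at E31, 4.20-fold (3.51 to 5.06) and 4.69-fold lower (4.08 to 5.42).

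The other 3 genes showed smaller differences at these days. ZEB1 was 3.42-fold lower (2.95 to 3.97) at E28, with 9.32 CPM in keratin cells and 31.8 CPM in keratin-free cells, and 3.50-fold lower (3.07 to 4.01) at E31, with 9.88 CPM and 34.6 CPM. ZEB2 was 3.01-fold (2.78 to 3.26) and 2.31-fold lower (2.14 to 2.49), with 31.9 CPM against 96.0 CPM at E28 and 33.7 CPM against 77.8 CPM at E31. TWIST2 was 2.63-fold (2.40 to 2.88) and 2.47-fold lower (2.28 to 2.67), with 26.0 CPM against 68.4 CPM and 30.6 CPM against 75.6 CPM.

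At E24 the genes split. ZEB1 and ZEB2, 2 of the 6, were lower in keratin cells by 2-fold or more, where 5.4% of genes were. ZEB1 had 19.6 CPM in keratin cells and 39.8 CPM in keratin-free cells, 2.03-fold lower (1.88 to 2.20), and ZEB2 had 26.1 CPM and 62.2 CPM, 2.39-fold lower (2.23 to 2.55). Both calls depended on the classes compared, since none of the 6 was past 2-fold lower with keratin cells taken at 1 or more UMIs, and 1 was in cells of 5000 to 15000 UMIs. SNAI1 (14.01 CPM against 24.9 CPM) and TWIST1 (32.4 CPM against 43.1 CPM) were lower by less. SNAI2 went the other way, with 67.4 CPM in keratin cells against 39.0 CPM in keratin-free cells, a ratio of 1.73 (1.62 to 1.84). TWIST2 was also slightly higher in keratin cells, with 17.96 CPM against 14.9 CPM, a ratio of 1.21 (1.08 to 1.34). The thinned share of cells with a SNAI2 UMI was 12.6% in keratin cells and 6.76% in keratin-free cells at E24, against 6.55% and 33.7% at E28, 8.47% and 39.4% at E31 and 15.7% and 38.6% at E37.

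At E37, 3 of the 6 genes were lower in keratin cells by 2-fold or more, where 11.6% of genes were. Among genes with 5 or more expected UMIs in each class, 1158 of 12994 were. ZEB2 had 41.6 CPM against 152 CPM, 3.65-fold lower (3.08 to 4.35), SNAI2 78.7 CPM against 286 CPM, 3.63-fold lower (3.21 to 4.12), and TWIST2 19.3 CPM against 56.6 CPM, 2.93-fold lower (2.29 to 3.83). ZEB1 had 22.3 CPM against 26.4 CPM, and the interval of its ratio, 0.657 to 1.07, spanned 1. TWIST1, with 34.7 CPM in keratin cells against 27.9 CPM in keratin-free cells, was higher in keratin cells, with a ratio of 1.24 (1.01 to 1.51). SNAI1 had 8.74 CPM, from 29 UMIs, against 14.3 CPM. The 338 keratin cells of E37 limited these values.

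**Figure D2:**
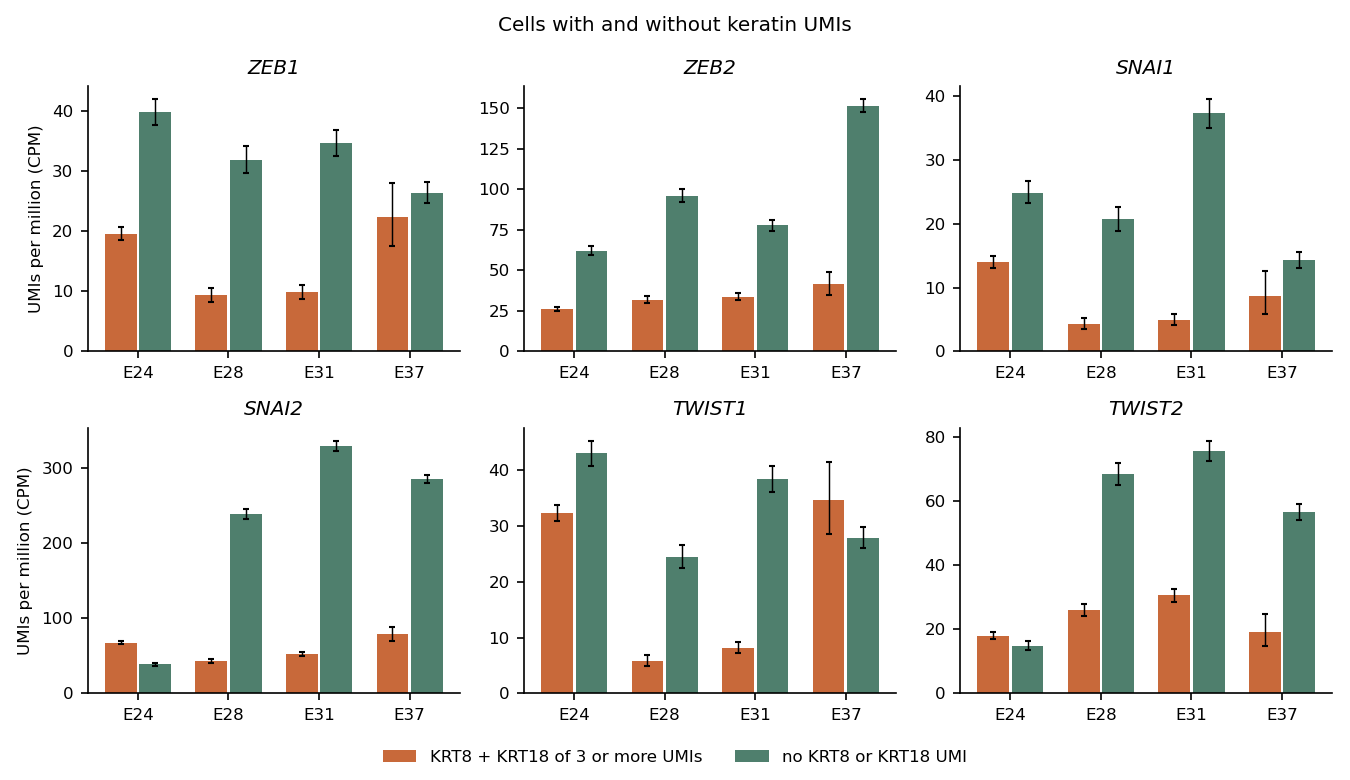
Bars give CPM of each gene in cells with 3 or more KRT8 plus KRT18 UMIs (left bar of each pair) and in cells with none (right bar), by library, with exact Poisson 95% intervals. At E28 and E31 the left bar is the lower one for all 6 genes, whereas SNAI2 at E24 is higher in keratin cells, 67.4 CPM against 39.0 CPM.

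Splitting cells by the number of keratin UMIs showed where the threshold falls. At E28, SNAI2 stood at 239 CPM with no keratin UMI, 111 CPM with 1 to 2, 47.4 CPM with 3 to 9 and 36.9 CPM with 10 or more. At E31 the same bins held 330, 167, 59.4 and 44.2 CPM, and at E37 286, 166, 96.5 and 39.5 CPM. The level was thus lower in each higher bin in all of these 3 libraries, and cells just below the threshold lay between the classes compared. At E24 the order was turned round, with 39.0, 47.5, 62.1 and 69.9 CPM. TWIST2 at E28 and E31 was not graded in this way: it was lowest at 3 to 9 UMIs, with 21.0 CPM and 26.7 CPM, and higher at 10 or more, with 32.0 CPM and 35.1 CPM.

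**Figure D3:**
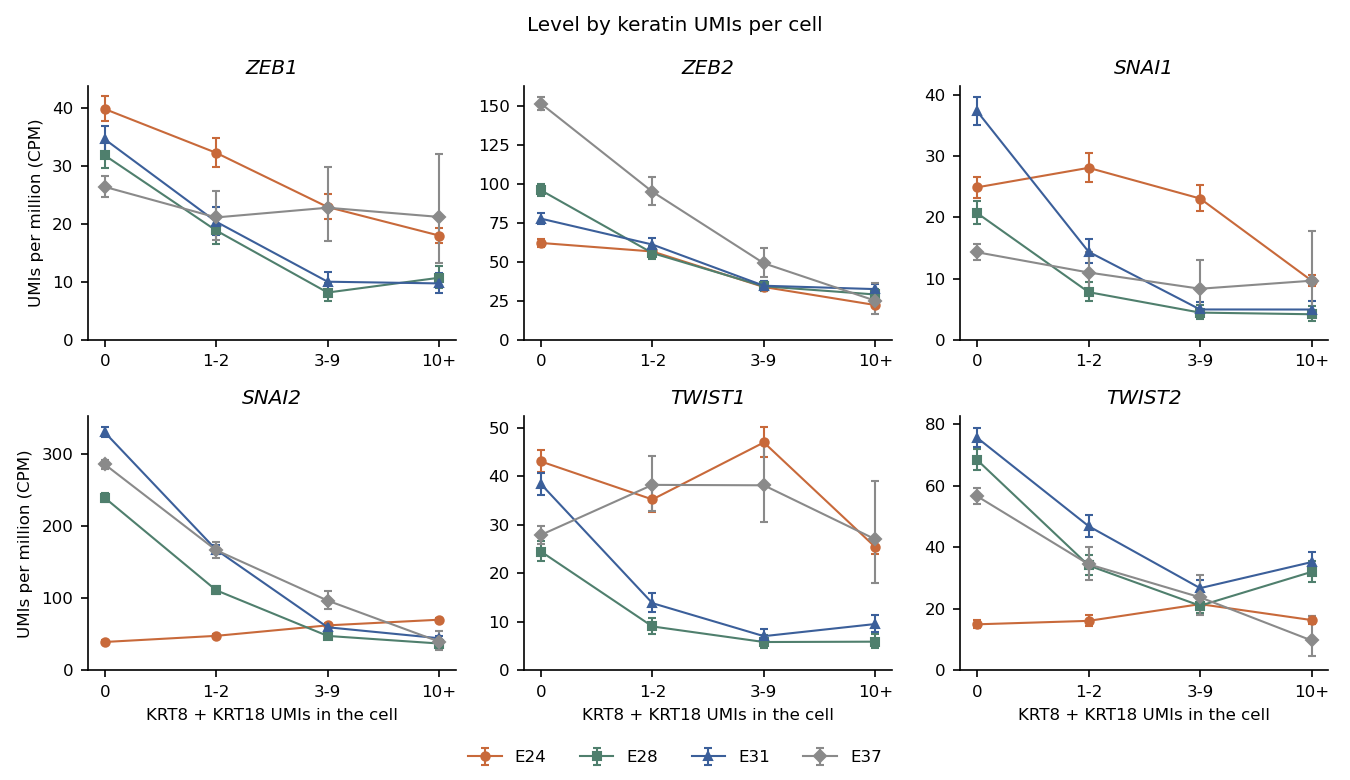
Points give CPM of each gene in cells with 0, 1 to 2, 3 to 9 and 10 or more KRT8 plus KRT18 UMIs, 1 line per library, with exact Poisson 95% intervals. SNAI2 is lower in each higher bin at E28, E31 and E37 and higher in each higher bin at E24.

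PRRX1, a homeobox gene of limb and body wall mesenchyme, moved with the keratin gate at E24. Of the 1736 PRRX1 cells of E24, 81.5% were keratin cells, against 40.6% at E28, 40.7% at E31 and 6.91% at E37, and PRRX1 itself had 43.9 CPM in keratin cells against 4.86 CPM in keratin-free cells at E24. Among E24 keratin cells, those with PRRX1 held 68.5 CPM of TWIST1 against 18.03 CPM in those without, a ratio of 3.80 (3.47 to 4.16), and 101 CPM of SNAI2 against 54.0 CPM, a ratio of 1.87 (1.76 to 1.99). With PRRX1 cells left out of both classes, 4 of the 6 genes were 2-fold or more lower in E24 keratin cells in place of 2: TWIST1 had 18.03 CPM against 41.8 CPM and SNAI1 11.7 CPM against 24.5 CPM. SNAI2 was still the higher in keratin cells, with 54.0 CPM against 35.6 CPM, a ratio of 1.52 (1.41 to 1.63). TWIST2 was then nearly equal, with 14.6 CPM against 14.3 CPM, a ratio of 1.02 (0.904 to 1.15). At E24 the limb-mesenchyme-like and splanchnic-mesenchyme-like classes, named from markers as described further on, had 82.8% and 90.1% keratin cells.

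Within keratin cells, those that also held an EPCAM UMI had less of each gene than those without it at E24, E28 and E31. TWIST2 in EPCAM-positive keratin cells was at 7.68 CPM against 47.1 CPM in EPCAM-negative ones at E28, a ratio of 0.163 (0.131 to 0.201), and at 10.8 CPM against 60.4 CPM at E31, 0.179 (0.152 to 0.210). ZEB1 had 3.77 CPM against 15.7 CPM at E28 and 3.81 CPM against 19.0 CPM at E31, which brings EPCAM-positive keratin cells down to the erythroid-like level of this gene. SNAI2 in EPCAM-positive keratin cells was at 50.2, 16.7, 22.6 and 28.3 CPM from E24 to E37. The E24 value was above the 39.0 CPM of keratin-free cells in that library, with a ratio of 1.29 (1.20 to 1.38), so the higher SNAI2 of E24 keratin cells was present on both sides of the EPCAM split.

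Epithelial genes chosen by name were mostly higher in keratin cells in all libraries, and more mesenchymal genes were higher than lower in keratin cells at E24 and more lower than higher at E28, E31 and E37. Of 30 epithelial genes, 26 of 28 measured were higher in keratin cells by 2-fold or more at E24, 25 of 27 at E28, 25 of 27 at E31 and 15 of 18 at E37, and none was lower. At E37 some genes were measured only through their UMIs in keratin cells. With 5 or more expected UMIs in each class, 8 of 10 were higher at E37, where 583 of 12994 genes were. Their median log2 ratio was 3.46, 2.56, 2.95 and 3.09, where that of all genes measured was 0.06, 0.11, 0.12 and -0.05. In the same contrast 12%, 9.05%, 9.87% and 6.68% of all genes were higher by 2-fold or more. GRHL2, an epithelial transcription factor known to oppose ZEB1 in human and mouse cells, had 7.76 CPM in keratin cells against 0.0901 CPM in keratin-free cells at E24 and 7.65 CPM against 0.379 CPM at E28. ESRP1, an epithelial splicing factor, had 15.5 CPM against 0.330 CPM at E24 and 13.4 CPM against 0.880 CPM at E31. CLDN7, a tight-junction claudin, had 11.1 CPM against 0.0601 CPM at E24, and RAB25, an epithelial trafficking GTPase, 17.9 CPM against 0.210 CPM. At E37 KRT19 had 438 CPM against 21.1 CPM and CLDN3 17.2 CPM against 0.528 CPM.

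CDH1, the E-cadherin gene and the classical target of these repressors, was barely counted. It had 0.489 CPM in keratin cells against 0.0300 CPM in keratin-free cells at E24, from 30 UMIs and 1 UMI, and 1.26 CPM against 0.211 CPM at E31. No CDH1 UMI was counted at E37, which with 3 UMIs as the limit allows up to 0.0745 CPM. CDH1 is therefore not used as a readout here. CDH2, the N-cadherin gene, was higher in keratin cells at E28 (178 CPM against 111 CPM) and E31 (187 CPM against 115 CPM), and lower at E24 (127 CPM against 166 CPM).

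Of 24 mesenchymal genes, 1 was lower and 13 were higher in keratin cells by 2-fold or more at E24. At E28 10 were lower and 3 higher, at E31 10 and 3, and at E37 8 and 2, with medians of log2 ratio of 1.23, -0.61, -0.52 and -0.69 from E24 to E37. From E24 to E37, 5.4%, 7.36%, 6.83% and 11.6% of all measured genes were lower by as much, and 12%, 9.05%, 9.87% and 6.68% were higher. The shares of mesenchymal genes that were higher at E28, E31 and E37 were near those of all genes. At E24 the collagen gene COL1A1 had 221 CPM in keratin cells against 27.7 CPM, the matrix proteoglycan gene DCN 173 CPM against 13.9 CPM, and POSTN, for periostin, 42.1 CPM against 6.79 CPM. THY1, for a surface glycoprotein of mesenchymal cells, was lower at each day, with 4.60 CPM against 22.9 CPM at E24 and 3.65 CPM against 51.3 CPM at E28. VIM, for the mesenchymal intermediate filament vimentin, had 657 CPM against 2365 CPM at E28 and 389 CPM against 1838 CPM at E31, but 808 CPM against 1214 CPM at E24 and 1960 CPM against 2596 CPM at E37.

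Among 19 other transcription factors linked to EMT, 5 of 18 measured were lower by 2-fold or more at E24, 4 of 17 at E28, 4 of 17 at E31 and 5 of 16 at E37, and 2, 2, 2 and 0 were higher. Of all genes, 5.4%, 7.36%, 6.83% and 11.6% were lower and 12%, 9.05%, 9.87% and 6.68% higher in the same libraries. ETS1 was 6.37-fold lower in keratin cells at E28 (9.79 CPM against 62.3 CPM) and 4.70-fold lower at E31 (11.4 CPM against 53.5 CPM). FOXC2, a forkhead gene of somitic mesoderm, was 5.17-fold lower at E24 (17.0 CPM against 87.9 CPM). FOXQ1 ran the other way at E28, with 6.60 CPM against 0.463 CPM. None of the E protein genes TCF3, TCF4 and TCF12 was past 2-fold in any library. Keratin over keratin-free ratios from E24 to E37 were 1.07, 1.21, 1.17 and 1.10 for TCF3, 1.02, 0.774, 0.833 and 0.770 for TCF4, and 0.912, 0.904, 0.803 and 0.796 for TCF12. In the bHLH and ID list, with 10, 10, 9 and 11 genes measured, 1 gene was lower in every library and 3, 2, 1 and 3 were higher. Several of these shares were near those of all genes. Examples were 1 of 9 higher at E31, where 9.87% of genes were, and 1 of 11 lower at E37, where 11.6% were. The lower gene was TCF15, a somite gene, and the higher genes included HAND1 at E24, with 252 CPM against 10.1 CPM.

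Of 21 EMT signals, all measured at E24, E28 and E31, 0, 2 and 3 were lower in keratin cells by 2-fold or more and 2, 5 and 5 were higher. At E37, 3 of 19 were lower and 1 higher. Several of these shares were near those of all genes, such as 2 of 21 higher at E24, where 12% of genes were, and 2 of 21 lower at E28, where 7.36% were. BMP4 had 87.8 CPM against 10.0 CPM at E24, the Notch ligand JAG1 254 CPM against 71.95 CPM at E28, and BMP7 54.8 CPM against 7.35 CPM at E31. TGFB1, the ligand most used to induce EMT in culture, was lower in keratin cells, with 6.80 CPM against 32.9 CPM at E28 and 5.59 CPM against 22.0 CPM at E31. Neural crest genes were mostly lower: 12 of 21 at E24, 13 of 20 at E28, 14 of 21 at E31 and 13 of 20 at E37. Of all genes, 5.4%, 7.36%, 6.83% and 11.6% were lower by 2-fold or more in these libraries. Another 4, 2, 3 and 0 crest genes were higher by as much, where 12%, 9.05%, 9.87% and 6.68% of all genes were. S100B, for instance, had 1.05 CPM against 22.3 CPM at E28.

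SOX10 marks neural crest cells and the glia they form. It was detected in 41, 62, 98 and 244 cells from E24 to E37, and these were set against cells with neither SOX10 nor PRRX1. Median depths were 14329, 14385, 11725.5 and 8302.5 UMIs in SOX10 cells against 9773, 11136, 9576 and 6580 UMIs in cells with neither. A cell with few UMIs can miss SOX10, so the class is a sample of its lineage. At E24, 22.0% of SOX10 cells were keratin cells, against 6.45%, 4.08% and 1.23% later.

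ZEB2, whose loss in human patients and mice disturbs neural crest derivatives, was the one gene of the 6 whose ratio in SOX10 cells over cells with neither had an interval above 1 in every library. It had 78.9 CPM in SOX10 cells against 42.2 CPM in cells with neither at E24, a ratio of 1.87 (1.38 to 2.48). At E28 it had 271 CPM against 54.2 CPM, 5.00-fold higher (4.41 to 5.66), at E31 236 CPM against 52.4 CPM, 4.51-fold (3.99 to 5.09), and at E37 352 CPM against 121 CPM, 2.90-fold (2.69 to 3.13). The thinned share of SOX10 cells with a ZEB2 UMI was 2.44%, 38.7%, 35.7% and 52.5%, against 8.30%, 9.78%, 9.60% and 22.0% of cells with neither. At E24 this share went against the summed level, and it rested on 41 cells.

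SNAI2 changed sides between the libraries. At E24 SOX10 cells held 138 CPM against 44.0 CPM in cells with neither, 3.14-fold higher (2.51 to 3.89). At E28 they held 48.4 CPM against 112 CPM, 2.31-fold lower (1.75 to 3.12), at E31 60.3 CPM against 169 CPM, 2.81-fold lower (2.24 to 3.58), and at E37 42.1 CPM against 261 CPM, 6.20-fold lower (5.08 to 7.65). SNAI2 in cells with neither gate gene was higher in each later library, and in SOX10 cells it was highest at E24.

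TWIST1 and TWIST2 were low in SOX10 cells throughout. TWIST1 had 9.66, 2.91, 3.26 and 2.17 CPM in SOX10 cells, from 6, 3, 4 and 5 UMIs, against 28.2, 10.8, 18.3 and 31.7 CPM in cells with neither. TWIST2 had 3.22, 5.81, 13.8 and 3.47 CPM, from 2, 6, 17 and 8 UMIs, against 14.6, 36.6, 45.0 and 50.9 CPM. At E37 both were lower in SOX10 cells, TWIST1 14.6-fold (6.25 to 45.2) and TWIST2 14.7-fold (7.43 to 34.0). SNAI1 was nearer equality, with 27.4, 22.3, 20.4 and 18.7 CPM in SOX10 cells against 18.7, 9.93, 18.5 and 13.3 CPM, and it passed 2-fold at E28, 2.24-fold higher (1.41 to 3.40). ZEB1 had 30.6, 14.5, 25.3 and 21.3 CPM against 28.1, 19.1, 20.9 and 26.0 CPM, and its ratio interval spanned 1 in all 4 libraries.

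Against these cells, 2 genes were lower by 2-fold or more at E24, where 9.28% of genes were, and 3 each at E28, E31 and E37, where 14.6%, 13.2% and 14.9% were. One gene, SNAI2, was higher at E24 (background 1.37%), 2, ZEB2 and SNAI1, at E28 (3.01%), and 1, ZEB2, at E31 (2.7%) and at E37 (6.36%).

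PRRX1 cells numbered 1736, 694, 774 and 391, with median depths of 10937, 12719.5, 10963 and 6820 UMIs, and only 2, 1, 2 and 3 cells held UMIs of both gate genes. By 2-fold or more, 2 of the 6 genes were higher in PRRX1 cells than in cells with neither at E24, 3 at E28 and 2 at E31, where 2.75%, 1.29% and 1.1% of genes were. At E37 none was, against 0.686% of genes, and none of the 6 was lower by 2-fold in any library, where 9.42%, 12.6%, 11.2% and 6.59% of genes were. TWIST1 had 72.3 CPM in PRRX1 cells against 28.2 CPM at E24, 29.9 CPM against 10.8 CPM at E28 and 42.9 CPM against 18.3 CPM at E31, ratios of 2.56 (2.41 to 2.73), 2.77 (2.39 to 3.20) and 2.35 (2.09 to 2.63). At E37 the ratio was 0.838 (0.660 to 1.05), with 26.6 CPM against 31.7 CPM, so the TWIST1 difference of the earlier libraries was not seen there.

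TWIST2 was higher in PRRX1 cells in all 4 libraries, with 26.95, 87.2, 100.2 and 86.1 CPM against 14.6, 36.6, 45.0 and 50.9 CPM, and passed 2-fold at E28 and E31. SNAI2 was higher as well, with 106, 248, 302 and 342 CPM against 44.0, 112, 169 and 261 CPM, and its ratio was smaller in each later library: 2.41 (2.28 to 2.53), 2.22 (2.11 to 2.32), 1.79 (1.71 to 1.86) and 1.31 (1.23 to 1.40). The remaining genes lay closer to 1. SNAI1 ratios ran from 0.841 at E37 to 1.75 at E28, ZEB2 ratios from 0.953 at E24 to 1.42 at E28, and ZEB1 ratios from 0.859 at E37 to 1.30 at E31.

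**Figure D4:**
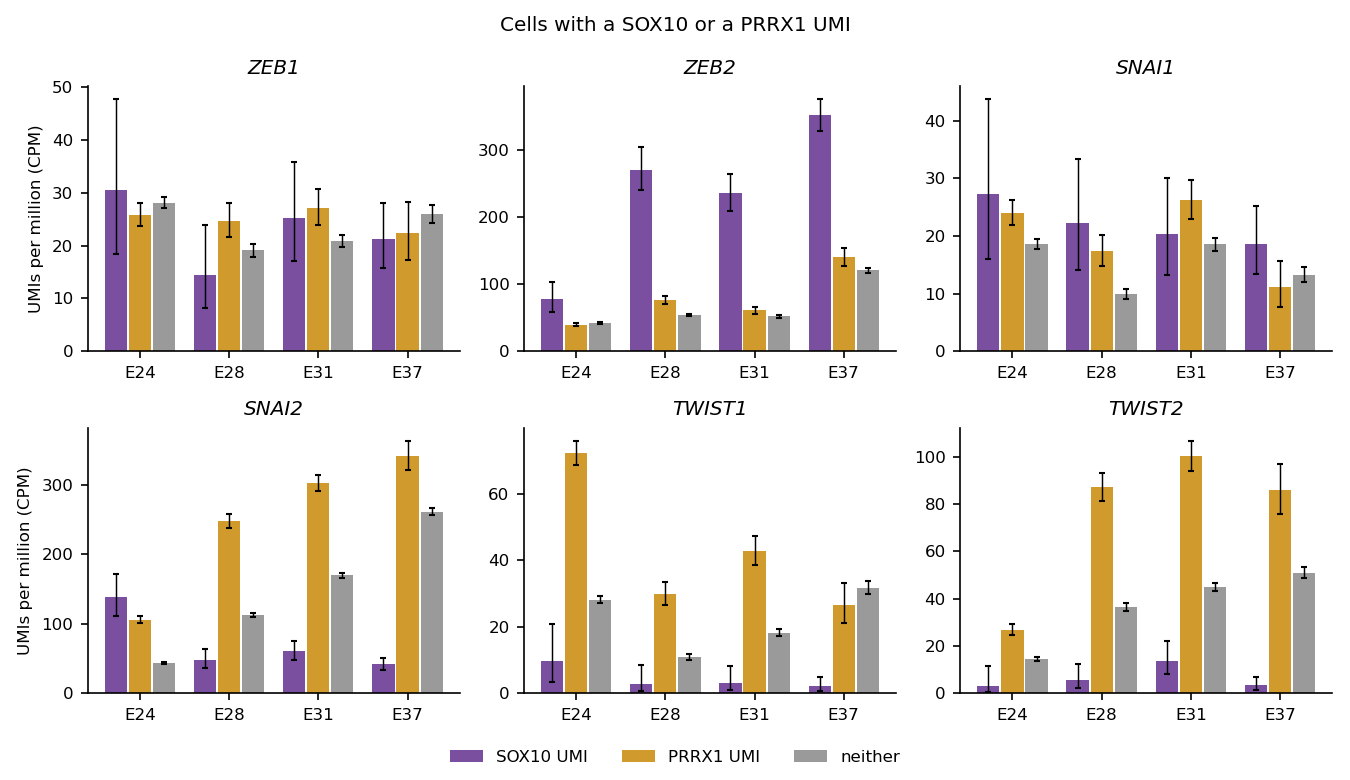
Bars give CPM of each gene in cells with a SOX10 UMI, in cells with a PRRX1 UMI and in cells with neither, by library, with exact Poisson 95% intervals. ZEB2 is highest in SOX10 cells in each library, TWIST1 and TWIST2 are at 13.8 CPM or less there, and SNAI2 in SOX10 cells is above the other classes at E24 and below them later.

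The keratin and PRRX1 gates combined gave the highest SNAI2 level of any gate. PRRX1 cells without keratin UMIs held 152, 391, 511 and 387 CPM of SNAI2 from E24 to E37, against 101, 88.5, 108 and 49.1 CPM in PRRX1 cells with 3 or more. ZEB2 was also lower in the keratin-positive PRRX1 cells in each library, with ratios over keratin-free PRRX1 cells of 0.304 (0.246 to 0.378), 0.319 (0.264 to 0.385), 0.343 (0.279 to 0.421) and 0.221 (0.1005 to 0.425). ZEB1 in the same cells did not follow, with ratios of 1.29, 0.775, 0.742 and 1.63 in stage order, of which that of E31 alone had an interval (0.560 to 0.981) that left out 1.

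Each library was also clustered without the 6 genes, and clusters were named where their markers allowed. ZEB1 was highest in an endothelium-like cluster in all 4 libraries. Endothelium-like cells held 108, 138, 117 and 89.0 CPM of ZEB1 from E24 to E37, while their TWIST1 was at 4.59, 1.82, 2.84 and 3.05 CPM and their TWIST2 at 2.58, 3.33, 5.42 and 3.56 CPM. Neuron-like cells at E24 and sympathoadrenal-like cells at E37 followed with 76.8 CPM and 65.7 CPM of ZEB1. It was near the erythroid-like level in nephric-epithelium-like cells, with 1.28, 2.52, 1.34 and 4.35 CPM, and low in gut-endoderm-like (4.27 CPM) and surface-ectoderm-like cells (2.42 CPM) at E24.

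ZEB2 levels were high in cells like neural crest or glia and in macrophage-like cells, which made up few of the cells of each library. Cells like neural crest or glia had 115 CPM at E24, 216 CPM at E31 and 374 CPM at E37. Macrophage-like cells held 150, 146, 189 and 178 CPM, from 39 to 94 cells. ZEB2 is also known as a regulator of blood cell lineages in mice. At E37 smooth-muscle-like cells held 185 CPM and splanchnic-mesenchyme-like cells 162 CPM. Podocyte-like cells, an epithelium, held 53.8, 58.2 and 71.0 CPM of ZEB2 at E28, E31 and E37, with at most 1.30 CPM of TWIST1.

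SNAI1 had its highest cluster level in presomitic-mesoderm-like cells at E24, the tissue that is about to form somites. These 455 cells held 126 CPM (116 to 137), and 23.1% of them had a SNAI1 UMI after thinning, against 3.68% of all E24 cells. Somite-like cells held 19.3 CPM and sclerotome-like cells 38.01 CPM at E24. Sclerotome-like cells at E31, a cluster of 166 whose leading genes were TGFBI and COL3A1, held 74.6 CPM. Cells like neural crest or glia had 16.2, 30.2 and 21.5 CPM at E24, E31 and E37.

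SNAI2 was high in neural-crest-like cells at E24, with 276 CPM, and at 42.0 and 38.2 CPM in neural-crest-like or glia-like cells at E31 and E37. Its highest clusters remained unnamed, and those of E24, E28 and E31 had COL3A1 among their leading genes. At E24 this was a cluster of 660 cells led by DCN, COL3A1 and COL1A1 with 284 CPM, 84.5% of whose cells were keratin cells. At E28 a cluster led by TGFBI, PCOLCE and COL3A1 held 503 CPM, at E31 one led by TAGLN and COL3A1 held 716 CPM, and at E37 one led by SULT1E1, EFEMP1 and DNER held 689 CPM, and 0.734%, 4.31% and 0% of their cells were keratin cells. The cluster with the most SNAI2 thus changed from a keratin-rich to a keratin-poor one after E24. Coelomic-epithelium-like cells held 121, 171 and 74.3 CPM at E28, E31 and E37, with 76.1%, 68.6% and 35.2% keratin cells, and gonadal-somatic-like cells at E37 held 145 CPM.

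TWIST1 was highest at E24 in sclerotome-like cells, with 127 CPM, and limb-mesenchyme-like cells, with 86.1 CPM. Both tissues are known sites of the gene in mouse embryos. At E37 an unnamed cluster of 440 cells led by DCN, SHISA3 and HLX, with LHX9 among its 10 leading genes, held 128 CPM. TWIST2 at E24 was highest in an intermediate-mesoderm-like cluster of 292 cells, with 87.0 CPM, and 88.0% of its cells were keratin cells. That name depended on the clustering, since at Leiden resolution 2 the highest TWIST2 cluster, of 269 cells with 91.8 CPM, was unnamed. At E28 and E31 its highest clusters, both led by TAGLN or TGFBI and collagen genes, held 223 CPM and 248 CPM. Coelomic-epithelium-like cells also held TWIST2, at 71.5, 89.1 and 78.7 CPM, while their TWIST1 was at 13.01, 18.9 and 28.8 CPM. Podocyte-like cells held at most 7.04 CPM of TWIST2.

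**Figure D5:**
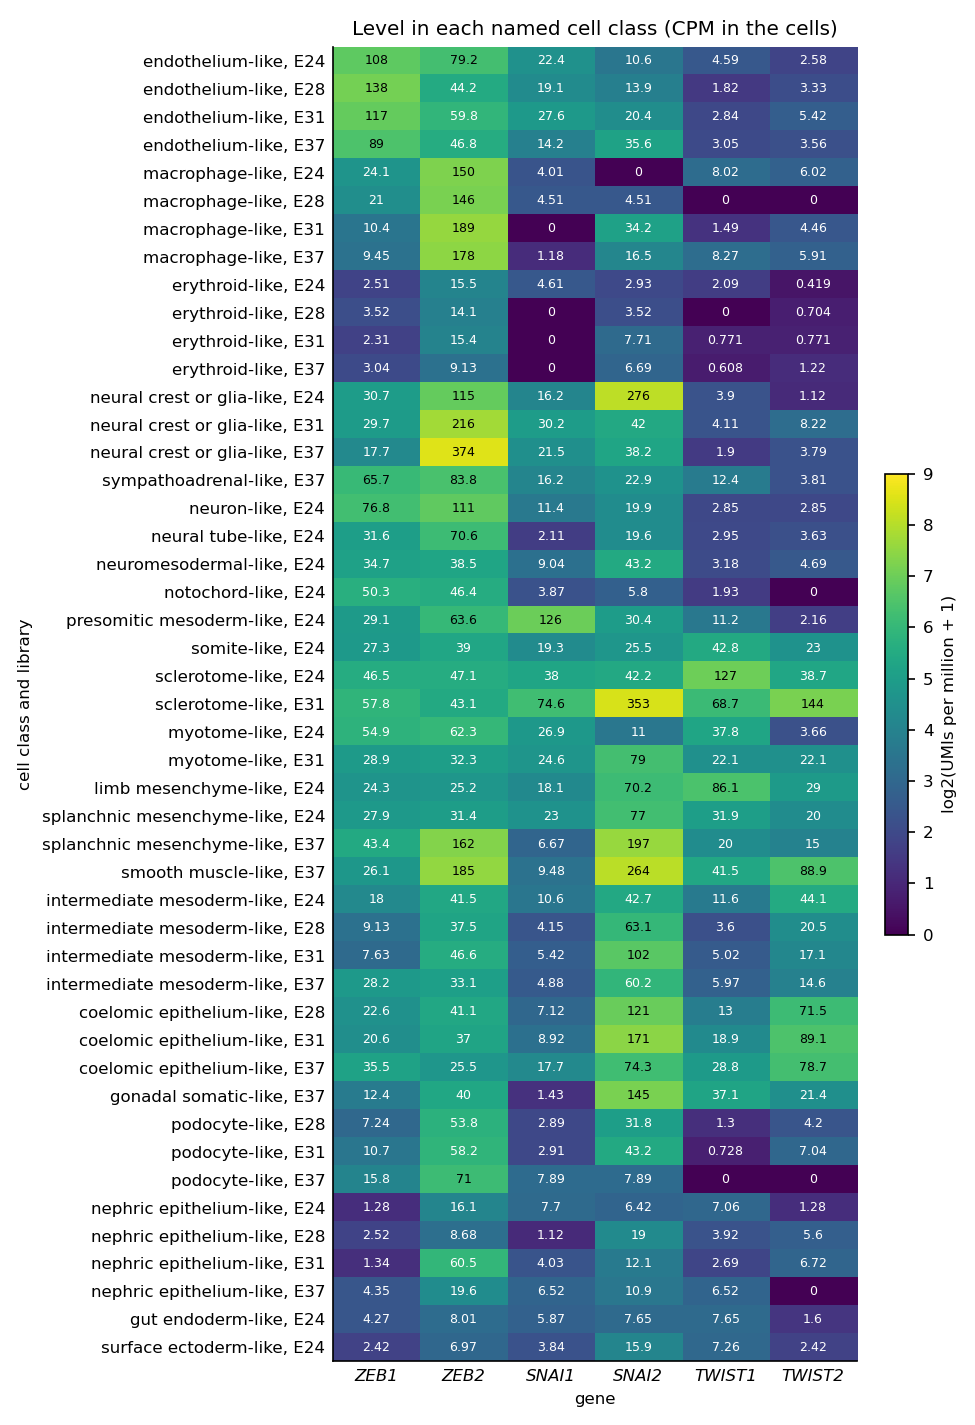
Each cell gives CPM of 1 gene in 1 named class of 1 library, with colour on a log2(CPM + 1) scale, and unnamed clusters are not shown. ZEB1 is highest in endothelium-like cells, ZEB2 is high in neural-crest-like and macrophage-like cells, SNAI1 is highest in presomitic-mesoderm-like cells and TWIST1 in sclerotome-like cells at E24, and nephric, gut and surface epithelia are low for most genes.

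Across the 104 clusters of the 4 libraries, with each library's mean taken off, SNAI2 and TWIST2 had the most similar levels of any pair, with Pearson's r of 0.85. TWIST1 and TWIST2 followed with 0.76 and SNAI2 and TWIST1 with 0.69, whereas ZEB2 and TWIST1 had 0.23. These are descriptions without a test, since clusters of 1 library share its depth and tissue. Among 11175 genes, PCOLCE was most like both SNAI2 (0.87) and TWIST2 (0.90), followed for both by LRRC17 and GLT8D2. CLMP (0.86) and PDGFRA (0.83) were most like TWIST1, LIX1L (0.74) and CNRIP1 (0.72) most like ZEB1, CNRIP1 (0.76) and GNG2 (0.70) most like ZEB2, and RFTN2 (0.75) and ANGPTL2 (0.67) most like SNAI1. Levels of KRT18 ran opposite to all 6, from -0.19 for TWIST1 to -0.53 for ZEB2. Those of KRT8 did so for ZEB1 (-0.34), ZEB2 (-0.43) and SNAI1 (-0.31). With SNAI2 (-0.06), TWIST1 (-0.05) and TWIST2 (-0.04), KRT8 had almost no relation.

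Within single cells thinned to 2000 UMIs, the genes were mostly seen alone. None of the 6 was detected in 68.8%, 65.3%, 57.9% and 40.9% of cells from E24 to E37, and 1 of them in 25.8%, 24.2%, 29.2% and 38.8%. Cells with 3 or more were rare, and no cell held all 6. TWIST2 cells were richer in SNAI2 than other cells: 49.0% of them also held a SNAI2 UMI at E28 (44.2% to 53.9%), against 16.9% of cells without TWIST2, 50.6% against 22.5% at E31 and 52.0% against 34.1% at E37. At E24 the shares were 13.5% (10.1% to 17.6%) and 9.77% (9.21% to 10.4%), with overlapping intervals. TWIST1 cells held SNAI1 more often than other cells at E24, 6.41% against 3.47%, and ZEB1 cells did not hold ZEB2 more often beyond the intervals, 9.55% (7.24% to 12.3%) against 8.03% (7.51% to 8.58%). At this depth a gene that is not detected may still be present.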

How the data were processed

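UMIs of 6 genes were counted in 4 droplet libraries of cynomolgus monkey embryos, 1 per stage. The deposited counts are raw UMIs for each gene in each cell barcode, made with Cell Ranger 2.1.0 per the submitters' processing notes, and hold only barcodes that the authors had called as cells. No source used here names the genome build, so no coordinate or sequence is printed. Per the labels' protocols both v2 chemistry and v3 kits were used, with no statement of which library had which. A gene row without a name held 0 UMIs.

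All deposited barcodes were kept (library totals 115332663, 62477350, 72233442 and 40243286 UMIs, 2259 UMIs or more per cell). Scrublet called 0, 64, 7 and 4 doublets, under 0.5% in 3 libraries and so a call that had not worked, and no cell was removed in the reported values. UMIs were summed per class and scaled to 1000000. Intervals are exact Poisson for levels, exact binomial (Clopper-Pearson) for shares and exact conditional binomial for ratios, all 95%. Reads of 1 molecule were already merged by UMI, and the intervals cover counting error only. Genes counted for the background had 20 or more UMIs over both classes and, outside the keratin comparison, 5 or more expected in each. List medians used a prior of 0.5 UMIs. The ratio code was tested on simulated data.

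For clusters each library was scaled to 10000 UMIs per cell, log-transformed and cut to 2000 variable genes without the 6 genes, with 30 components, 15 neighbours and Leiden resolution 1 (scanpy 1.11.5, igraph 0.11.9, scikit-learn 1.9.0, Python 3.11.15). Of 27 marker classes, a name needed 4 or more markers at or above 2-fold of the median cluster in 5% or more of cells. It also needed 2 markers among the 10 leading genes with 40% of markers high, 1 with 60%, or 75% without, thresholds set after the data were seen. Unnamed clusters held 1470, 2583, 3877 and 3386 cells. Likeness used log2(CPM + 5) of genes reaching 20 CPM. The 6 genes, the gates, the lists and the rules were chosen with earlier results of these data known. Named genes were the 6 genes, the gate genes, EPCAM, CDH1, CDH2 and VIM, the genes of each list with the strongest interval bound, and the genes most like each of the 6. TCF3, TCF4 and TCF12 were named after their values were seen. Alternatives varied the gates, depth, scaling, doublets, thinning and clustering.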

Additional observations from a re-analysis of the deposited data

Results flagged for a closer look

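The ratio of keratin cells over keratin-free cells pointed in opposite directions between libraries for 3 genes, with intervals on opposite sides of 1. These differences between libraries were not tested, since each stage has 1 library. SNAI2 had a ratio of 1.73 at E24, against 0.178 at E28, 0.158 at E31 and 0.275 at E37. TWIST2 had a ratio of 1.21 at E24, against 0.380 at E28, 0.405 at E31 and 0.341 at E37. Its E24 ratio above 1 did not hold in every class of cells. It was 1.02 (0.904 to 1.15) without PRRX1 cells. For EPCAM-positive keratin cells over keratin-free cells it was 0.846 (0.746 to 0.960). TWIST1 had 0.752 at E24, 0.238 at E28, 0.213 at E31 and 1.24 (1.01 to 1.51) at E37. The E37 interval thus began close to 1. Without PRRX1 cells the E37 ratio of TWIST1 was 1.20 (0.972 to 1.48), which spanned 1. For EPCAM-positive keratin cells over keratin-free cells at E37 it was 0.822 (0.477 to 1.32). PRRX1 cells and dissection moved with the SNAI2 value of E24: 27.2% of E24 keratin cells and 2.83% of keratin-free cells held PRRX1. The E24 ratio of SNAI2 without PRRX1 cells was 1.52. Among PRRX1 cells alone it was 0.664 (0.562 to 0.790), below 1, with 97 keratin-free cells. The part of the differing dissection in the SNAI2 value was not tested.

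SNAI2 in SOX10 cells over cells with neither gate gene was 3.14 at E24, 0.433 at E28, 0.356 at E31 and 0.161 at E37. This too was not tested, and the E24 value rests on 41 cells and 86 UMIs.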

How the results depend on the processing

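No paired analysis was possible because no stage has a second library, and leaving out a replicate was not possible for the same reason. Scaling without ribosomal protein and haemoglobin genes, which held 27.6% to 28.2% of UMIs, changed no count of genes past 2-fold, and neither did removing doublets at the expected rate, the mean over cells of each cell's CPM, or EPCAM in place of keratins. The sizes of the keratin log2 ratios were less stable. Of 24, these settings in turn moved 0, 7, 4 and 18. Keratin at 1 or more UMIs moved 18 and at 10 or more 14, and thinning moved 17. None of these settings reversed a keratin ratio by the label used, but the label passed over some ratios that crossed 1. For E37 over E31, SNAI2 had a ratio of 1.38 in all cells and 0.865 in keratin-free cells and was not labelled reversed. Whether a keratin ratio crossed 1 under these settings is not given here. The number of genes 2-fold lower in E24 keratin cells was 0 with keratin at 1 or more UMIs, 1 in cells of 5000 to 15000 UMIs, where 1 was also higher, and 4 without PRRX1 cells, a setting chosen after the data were seen. Higher genes numbered 1 in PRRX1 cells at E28 after thinning, 1 at E31 with 2 or more PRRX1 UMIs, and 2 in SOX10 cells at E31 after thinning. At E37 thinning gave 1 gene higher and 1 lower in PRRX1 cells. For E28 over E24, keratin cells alone gave 3 lower and 0 higher and reversed SNAI2 to a log2 ratio of -0.66, and keratin-free cells gave 0 lower. For E37 over E31, keratin-free cells gave 1 lower and 0 higher and keratin cells 2 higher. The cause of these changes was not tested. Thinned SOX10 classes gave 7 of 24 ratios, the others having too few UMIs or cells, and 2 or more SOX10 UMIs left fewer than 20 cells at E24. At Leiden resolution 2 the highest cluster level moved beyond its interval in 9 of 24 cases.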

Other observations

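The stage differences of the whole libraries did not hold alike in both keratin classes. In keratin-free cells SNAI2 was 6.13-fold higher at E28 than at E24 (5.77 to 6.52), with 239 CPM against 39.0 CPM, and TWIST2 4.59-fold higher (4.15 to 5.09), with 68.4 CPM against 14.9 CPM. In keratin cells SNAI2 was 1.58-fold lower at E28 (1.48 to 1.69), and TWIST1 was 5.56-fold lower (4.71 to 6.61), with 5.82 CPM against 32.4 CPM. SNAI1 in keratin cells was 3.25-fold lower at E28 (2.67 to 3.998). In keratin cells at E37 TWIST1 was 4.24-fold higher than at E31 (3.36 to 5.31) and ZEB1 2.26-fold higher (1.72 to 2.92), from 338 cells that came from another dissection.

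Neuromesodermal-like cells at E24, which give rise to spinal cord and somites, held 34.7 CPM of ZEB1, 9.04 CPM of SNAI1 and 3.18 CPM of TWIST1. Presomitic-mesoderm-like cells held 29.1, 126 and 11.2 CPM of the same genes, somite-like cells 27.3, 19.3 and 42.8 CPM, and sclerotome-like cells 46.5, 38.01 and 127 CPM. Across these classes of 1 library SNAI1 was highest in presomitic-mesoderm-like cells and TWIST1 in sclerotome-like cells. No lineage order was tested.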
